A study of Mus musculus with 6 samples.

Results

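The 8 genes described here flank Fto, the RNA demethylase gene deleted in this study, on mouse chromosome 8. They were taken by position and name from a table of 25690 genes, and all 8 were found in it under their Ensembl identifiers: Chd9, Rbl2, Aktip and Rpgrip1l to the left of Fto, and Irx3, Irx5, Mmp2 and Lpcat2 to the right. The RNA came from hepatic tissue of mice, as 3 libraries labelled wildtype control and 3 labelled hepatic FTO knockout. The labels give no strain, sex, age, Cre driver or deleted exon, and do not say whether each library came from its own animal, so each p-value rests on a spread between libraries that may be technical. The values are FPKM (fragments scaled to the length of the transcript and the number of mapped fragments). Where 3 values of a group are listed, they stand in the order of replicates 1, 2 and 3.

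Genes can influence their neighbours on a chromosome through shared promoters, overlapping transcripts and distant enhancers. The introns of Fto are known to hold regulatory sequences that contact the promoters of Irx3 and Irx5, which encode Iroquois homeobox transcription factors, and Rpgrip1l starts next to Fto on the opposite strand. The levels of these genes in an Fto knockout therefore bear on whether the deletion of Fto was accompanied by differences at its neighbours.

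In mm10 coordinates with the GENCODE M21 annotation, Chd9 lies at 90828352 to 91054516, Rbl2 at 91070057 to 91123844, Aktip at 91111784 to 91199976, Rpgrip1l at 91217030 to 91313262 and Fto at 91313525 to 91668439. To the right, Irx3 lies at 91798525 to 91802067, Irx5 at 92357625 to 92376286, Mmp2 at 92827291 to 92853420 and Lpcat2 at 92855339 to 92919279. Between the annotated ends there are 262 bases from Rpgrip1l to Fto, 113548 from Aktip, 189680 from Rbl2, 259008 from Chd9, 130085 from Irx3, 689185 from Irx5, 1158851 from Mmp2 and 1186899 from Lpcat2. Rbl2, on the plus strand, and Aktip, on the minus strand, overlap in the annotation by 12061 bases. The sources used here do not give strand use in counting, so reads from that overlap cannot be told apart.

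The promoters of Fto and Rpgrip1l are shown first because they occupy one stretch of DNA. Each RefSeq window (build GRCm38.p6) runs from 250 bases before to 50 bases after the start site and is read 5′ to 3′ on the strand of its gene. The Fto window is chr8:91313275-91313574 (plus strand) and the Rpgrip1l window is chr8:91313173-91313472 (minus strand). Capitals mark the 198 bases present in both windows, which are the reverse complement of each other.
Fto: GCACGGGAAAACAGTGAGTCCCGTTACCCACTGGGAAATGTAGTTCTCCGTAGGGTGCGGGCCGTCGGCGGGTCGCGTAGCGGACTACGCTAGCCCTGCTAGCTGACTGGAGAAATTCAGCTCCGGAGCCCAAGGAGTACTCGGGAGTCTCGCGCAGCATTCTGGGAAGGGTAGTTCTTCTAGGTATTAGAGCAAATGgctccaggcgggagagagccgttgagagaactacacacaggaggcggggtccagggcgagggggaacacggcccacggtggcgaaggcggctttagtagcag
Rpgrip1l: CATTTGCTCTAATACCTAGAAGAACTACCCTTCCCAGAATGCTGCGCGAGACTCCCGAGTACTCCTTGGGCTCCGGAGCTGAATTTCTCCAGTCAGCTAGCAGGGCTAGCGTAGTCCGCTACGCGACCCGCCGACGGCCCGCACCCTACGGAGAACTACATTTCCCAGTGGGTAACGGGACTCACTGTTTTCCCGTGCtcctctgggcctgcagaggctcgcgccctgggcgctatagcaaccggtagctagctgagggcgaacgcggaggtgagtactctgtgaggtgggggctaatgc

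The RefSeq start sites of the pair lie 303 bases apart, and the shared stretch holds 15 CG dinucleotides and 0 GC boxes (GGGCGG on either strand). Of 27025 genes with a RefSeq window, 2936 (10.9%) had a window that overlapped the window of an opposite, divergent gene in this way. The windows of Rbl2 (chr8:91069807-91070106, plus strand) and Irx3 (chr8:91801605-91801904, minus strand) are shown for contrast, since they belong to the neighbour with the highest level and to the neighbour whose libraries separated by genotype. Capitals here mark CG dinucleotides.
Rbl2: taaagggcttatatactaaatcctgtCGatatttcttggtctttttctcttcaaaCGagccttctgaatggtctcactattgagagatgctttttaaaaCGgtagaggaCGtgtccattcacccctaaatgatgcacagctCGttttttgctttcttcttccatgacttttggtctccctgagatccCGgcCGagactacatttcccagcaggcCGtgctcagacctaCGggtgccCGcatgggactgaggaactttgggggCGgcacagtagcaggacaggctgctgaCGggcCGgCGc
Irx3: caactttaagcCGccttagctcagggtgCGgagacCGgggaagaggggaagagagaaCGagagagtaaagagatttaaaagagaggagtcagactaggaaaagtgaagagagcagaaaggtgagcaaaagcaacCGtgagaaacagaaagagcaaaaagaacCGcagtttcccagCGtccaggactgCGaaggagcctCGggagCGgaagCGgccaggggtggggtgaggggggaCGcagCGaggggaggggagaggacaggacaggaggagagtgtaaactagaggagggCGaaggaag

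Of the 8 neighbours, 6 had a window in the RefSeq table. The ratio of observed to expected CG dinucleotides was 0.871 for Fto, 0.815 for Rpgrip1l, 0.748 for Irx3, 0.727 for Rbl2 and 0.674 for Lpcat2, against a median of 0.384 over 32851 windows. Chd9 had windows at 0.602 and 0.111, and Aktip at 0.845, 0.837 and 0.426. High CG content was thus shared by genes of very different level: the Irx3 window ranked above 74.9% of windows and the Rbl2 window above 73.2%. GC boxes were found in windows of Chd9, Rbl2, Aktip and Lpcat2 and not in those of Fto, Rpgrip1l and Irx3; 35.7% of all windows hold one. A TATA box (TATAAA, either strand) was found in the Lpcat2 window only among these genes, and 13.6% of all windows hold one. E2F sites, searched on both strands as TTTCCCGC, TTTCGCGC, TTTGCCGC and TTTGGCGC, were in none of these windows and in 2.27% of all windows, and the E-box CACGTG was in none and in 7.15% of all. The letters GTTGCC, an exact form of the motif of RFX factors, which regulate ciliary genes, were in none of these windows and in 12.5% of all. Looser forms of that motif were not searched. A CCAAT box was found in 1 window each of Aktip and Lpcat2, and in 37.4% of all windows.

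The depth of each library, inferred from the FPKM that 1 fragment is worth within preset bounds of 25000000 and 50000000, was 34140000 to 42530000 fragments. Over 774 genes of 100 to 1000 FPKM, the median size of the log2 difference was 0.141 between wild type replicates 1 and 2, but 0.412 and 0.287 between these and wild type replicate 3, which stood apart. Between knockout libraries it was 0.120 to 0.189. All 12 hepatocyte markers passed the filter on low values and limma called 0 of them. An unadjusted p under 0.05 was reached by 4, all higher, against 18.7% of all tested genes in either direction. Their summed level was 28731 to 58771 FPKM in wild type and 33099 to 61488 FPKM in knockout. Albumin, which every hepatocyte makes, had a listed value of 0 in 1 library of each group (wild type replicate 1, knockout replicate 3). These libraries set the low ends of the summed ranges, which therefore do not measure hepatocyte content. A listed 0 thus does not by itself show that a gene is silent.

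Fto itself was at 6.67, 6.02 and 6.40 FPKM across the wild type libraries and 1.79, 3.83 and 2.66 FPKM across the knockout libraries. All knockout libraries lay below all wild type libraries, and the log2 change was -1.004 with an SE of 0.19 (limma, adjusted p = 0.0386). The value covers the whole gene and does not resolve a deleted exon. The call was lost without wild type replicate 1 (adjusted p = 0.0804), wild type replicate 2 (0.113), knockout replicate 1 (0.0662) or knockout replicate 3 (0.146), and with no filter on low values (0.0975).

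The neighbours were expressed over a wide range in this tissue. In wild type the order of levels was Rbl2, Aktip, Chd9, Lpcat2, Mmp2, Rpgrip1l, Irx3 and Irx5, with means of 7.41, 5.74, 1.17, 0.452, 0.403, 0.324 and 0.108 FPKM for the first 7 and all 3 libraries listed at 0 for Irx5. The wild type ranges of Lpcat2 and Mmp2 overlapped, as did those of Mmp2 and Rpgrip1l, so the order of these 3 genes is not resolved. The other adjacent genes in this order did not overlap. The wild type range of Aktip overlapped that of Fto, and all wild type libraries of Rbl2 lay above those of Fto. The means of Rbl2 and Aktip over 6 libraries exceeded those of 80.0% and 76.6% of the genes in the table. Only Rbl2, Aktip and Chd9 reached a mean of 1 FPKM over the 6 libraries and were tested; the other 5 neighbours were below it.

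**Figure D1:**
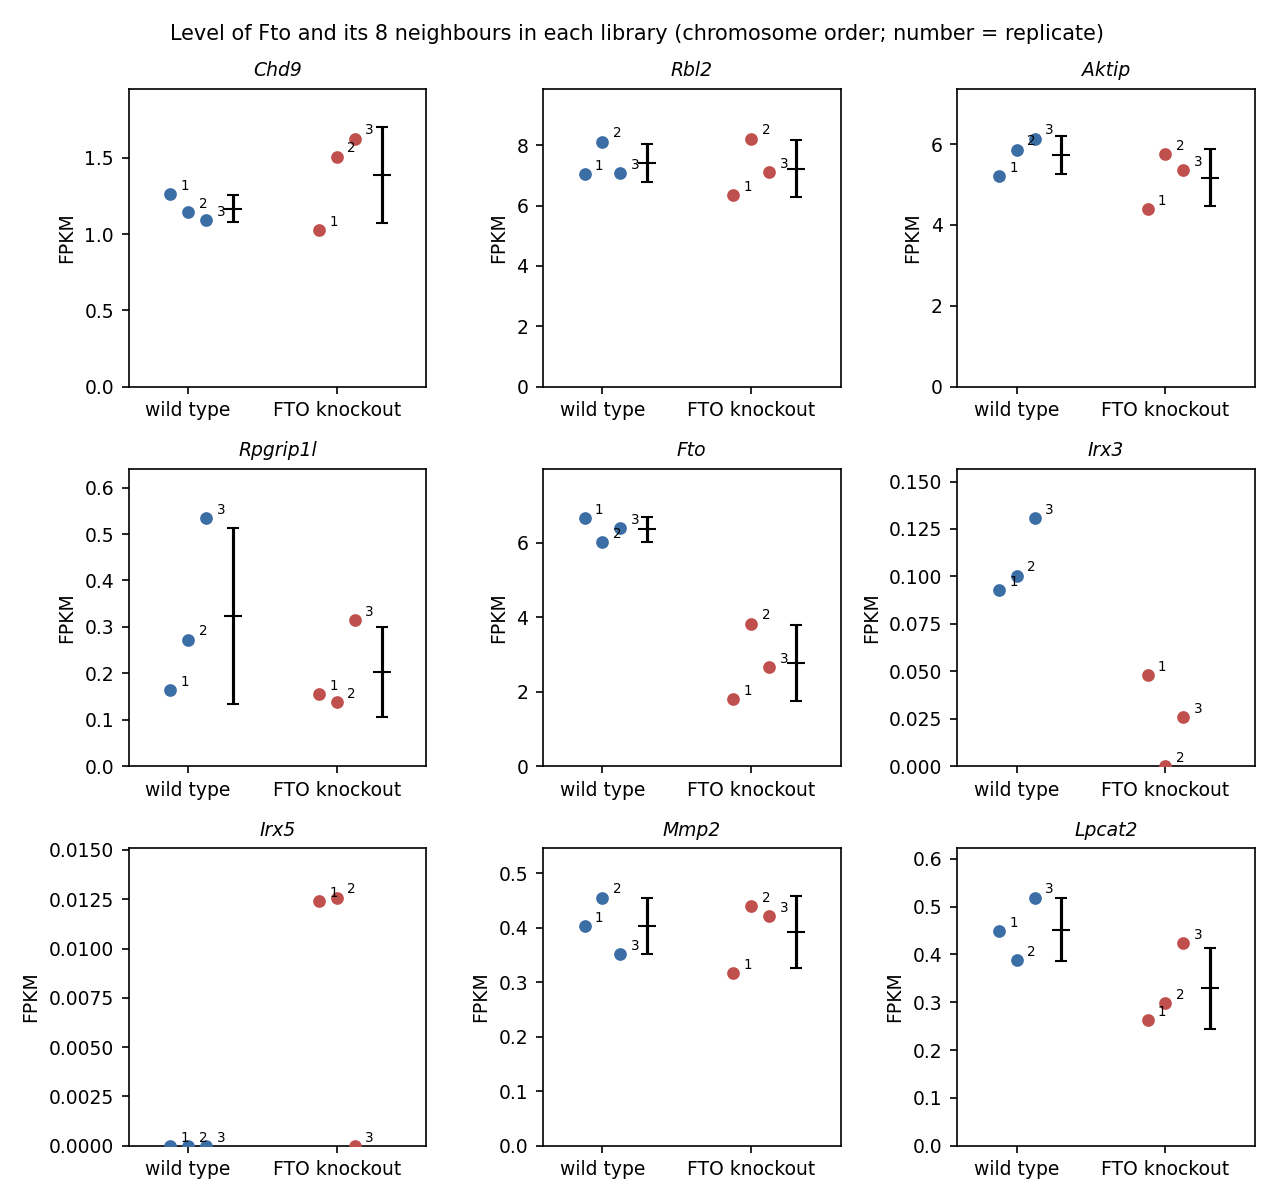
FPKM of Fto and its 8 neighbours in the 3 wild type (blue) and 3 FTO knockout (red) libraries, each panel with its own axis from 0; points are libraries numbered by replicate, and black bars are the mean ± SD (n = 3), left out for genes with a library at 0. Fto and Irx3 are the panels in which the groups do not overlap.

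None of the 3 tested neighbours passed the test. Limma called 0 of 3 at an adjusted p under 0.05 and 0 of 3 at an unadjusted p under 0.05, against 2.76% (1.65% as lower) and 18.7% of all 10405 tested genes. The groups of all 3 overlapped, while those of 24.5% of tested genes did not. A count of 0 of 3 lies near these shares and is no result about the neighbours as a set.

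Rbl2 encodes p130, a pocket protein of the retinoblastoma family that represses cell cycle genes in resting cells as part of the DREAM complex. Its level was 7.03, 8.12 and 7.07 FPKM across the wild type libraries and 6.34, 8.22 and 7.11 FPKM across the knockout libraries. The knockout libraries spanned the wild type range on both sides. The log2 change was -0.04 with an SE of 0.12 and a 95% interval from -0.32 to 0.25 (limma, adjusted p = 0.917). Its sign turned without wild type replicate 2 or knockout replicate 1, to 0.02 and 0.04.

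Aktip encodes a ubiquitin-conjugating enzyme variant that binds AKT and, with Hook and FHIP proteins, links cargo to the motor dynein. It was at 5.21, 5.86 and 6.13 FPKM across the wild type libraries and 4.40, 5.75 and 5.36 FPKM across the knockout libraries. Knockout replicate 1 was the lowest of all libraries, and the other knockout libraries lay within the wild type range. The log2 change was -0.13 with an SE of 0.12 and a 95% interval from -0.41 to 0.15 (limma, adjusted p = 0.622), and it was -0.04 without knockout replicate 1 and -0.20 without knockout replicate 2.

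Chd9 encodes a chromodomain helicase, a chromatin remodeller that also acts as a coactivator of the nuclear receptor PPAR alpha. Its level was 1.26, 1.15 and 1.09 FPKM across the wild type libraries and 1.03, 1.51 and 1.63 FPKM across the knockout libraries. The knockout group held both the lowest and the highest library. The log2 change was 0.13 with an SE of 0.13 and a 95% interval from -0.16 to 0.42 (limma, adjusted p = 0.639), and it was 0.24 without knockout replicate 1 and 0.06 without knockout replicate 3. The values correspond to about 429 to 830 fragments per library.

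The 3 intervals did not reach the change of Fto: the lowest of them ended at -0.41 (Aktip), while that of Fto ran from -1.44 to -0.56. The same fold change gives a smaller value on this scale at a lower level. The comparison is therefore least direct for Chd9, with a wild type mean of 1.17 FPKM against 6.36 FPKM for Fto. Set against Fto in the same library, Rbl2 had 1.05, 1.35 and 1.11 times the FPKM of Fto in wild type replicates 1, 2 and 3 and 3.54, 2.15 and 2.67 times in knockout replicates 1, 2 and 3. On the log2(FPKM + 1) scale the level relative to Fto differed by 0.97 for Rbl2, 0.87 for Aktip and 1.13 for Chd9 (knockout minus wild type). Each of these values is the change of the neighbour minus the change of Fto, so most of it restates the fall of Fto, and it says only that the neighbour did not fall with Fto. The groups did not overlap for any of the 3, but those of Fto itself did not overlap either. The share of all tested genes that separate relative to Fto was not computed, so this count is no result about the neighbours. The exact two-sided permutation test gave p = 0.1 for each and 0.1 after adjustment over the 3 comparisons, and 0.1 is the smallest p this test can give with 3 against 3 libraries.

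**Figure D2:**
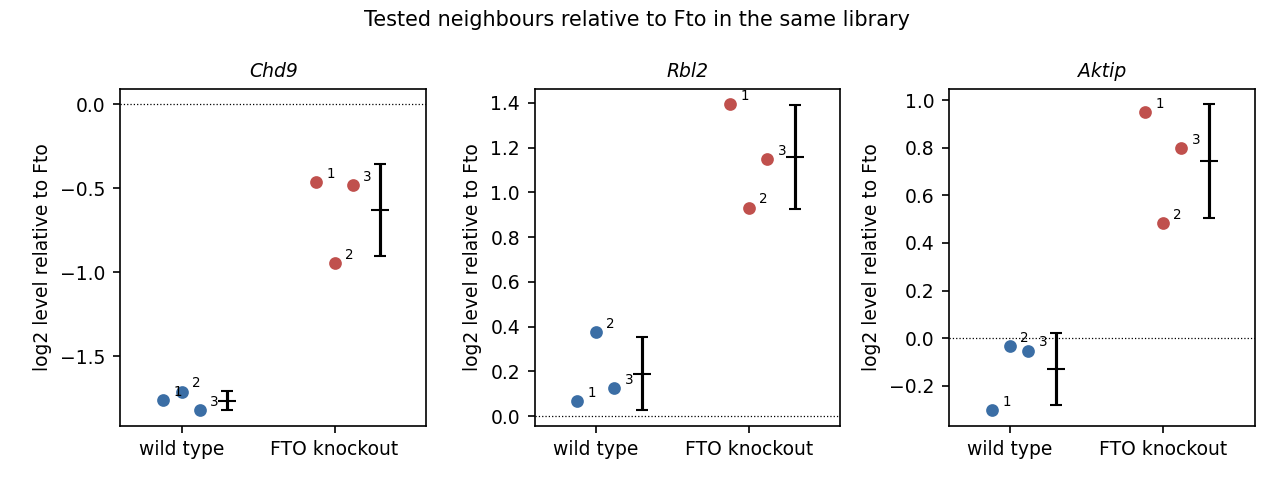
Level of each tested neighbour relative to Fto in the same library, as log2(FPKM + 1) of the neighbour minus that of Fto, in wild type (blue) and FTO knockout (red); points are libraries numbered by replicate, black bars the mean ± SD (n = 3), and the dotted line marks a level equal to that of Fto. The knockout libraries lie higher in all 3 panels, by 0.87 (Aktip) to 1.13 (Chd9) on average, as the fall of Fto by 1.004 places them for a gene with little change of its own.

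Rpgrip1l, whose protein sits in the transition zone at the base of the primary cilium, shares its promoter region with Fto as printed above but had a far lower level. It was at 0.164, 0.273 and 0.534 FPKM across the wild type libraries and 0.156, 0.138 and 0.314 FPKM across the knockout libraries, or about 33 to 131 fragments per library. Knockout replicates 1 and 2 lay below all wild type libraries, and knockout replicate 3 lay above 2 of them. The groups overlapped, and the exact two-sided permutation test on log2(FPKM + 1) gave p = 0.5. The mean difference of -0.13 on that scale became -0.02 without wild type replicate 3, the highest library. In the fit with no filter on low values the adjusted p was 0.658 (limma). With a pseudocount of 0.1, which compresses low values less, the interval ran from -1.34 to 0.47 and included the value of Fto on the same scale, -1.24. A difference of -1.24 on this scale was thus neither detected in Rpgrip1l nor outside its interval. At the lower level of Rpgrip1l it would be a larger fold change than that of Fto.

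Irx3 was the neighbour whose groups separated, at a level of a few fragments. It was at 0.0926, 0.1004 and 0.131 FPKM across the wild type libraries and 0.0479, 0 and 0.0260 FPKM across the knockout libraries. Every knockout library lay below every wild type library. With a longest transcript of 2748 bases these values correspond to about 9, 10 and 13 fragments in wild type and 5, 0 and 3 in knockout, so each value carries a large counting error. Groups that did not overlap and were lower in knockout were found for 8.46% of the 8560 genes above 0 with a mean under 1 FPKM.

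The separation of Irx3 did not pass a test. The exact permutation test gave p = 0.1, the smallest possible, and the fit with no filter gave an unadjusted p of 0.00273 and an adjusted p of 0.0966 (limma, log2 change -0.11 with an SE of 0.02 on the log2(FPKM + 1) scale, which compresses low values). In that fit 0.949% of 18965 genes were called, and 8.42% were lower at an unadjusted p under 0.05. Over 8 alternatives the adjusted p of Irx3 ran from 0.0966 to 0.254, and the difference was below 0 in all of them. The fit with a pseudocount of 0.1 in place of 1 gave -0.75 with an interval from -1.15 to -0.35.

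Irx5 was at the limit of detection. It was listed at 0 in all 3 wild type libraries and knockout replicate 3 and at 0.0124 and 0.0126 FPKM in knockout replicates 1 and 2, about 1 fragment each. No difference was detectable at this depth. Of the 6 Iroquois genes, Irx2, Irx4 and Irx6 were listed at 0 in all 6 libraries, and none of the 6 reached the filter. Irx1, on chromosome 13 and outside the region, was the most abundant, at 0.251, 0.202 and 0.298 FPKM across the wild type libraries and 0.729, 0.830 and 0.530 FPKM across the knockout libraries. Its groups did not overlap either, with the knockout higher, opposite in direction to Irx3, and its adjusted p with no filter was 0.0665 (limma). Of the low genes, 15.8% did not overlap in either direction.

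Crnde, a long noncoding RNA gene that lies between Irx3 and Irx5, held 0.192, 0.0920 and 0.218 FPKM across the wild type libraries and was listed at 0 in all knockout libraries. The wild type values correspond to about 8, 4 and 9 fragments, and 0.619% of the 8560 low genes showed zeros in all knockout libraries with values above 0 in all wild type libraries. The lincRNA gene Gm21817 lies within the span of Crnde on the same strand, so the reads of the pair may have been split between them, and it was at 1.49, 1.76 and 1.17 FPKM across the wild type libraries and 1.52, 1.73 and 0.766 FPKM across the knockout libraries (adjusted p = 0.831, limma). For Crnde the adjusted p with no filter was 0.0794 and ran from 0.0267 to 0.234 over 8 alternatives, so that its call depends on the setting. It passed with a pseudocount of 0.1 (0.0375, in a fit that called 1.13% of genes) and without wild type replicate 2 (0.0267).

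Mmp2 encodes gelatinase A, a secreted protease of the extracellular matrix made mainly by stellate and other mesenchymal cells in liver. It was at 0.403, 0.455 and 0.351 FPKM across the wild type libraries and 0.317, 0.440 and 0.421 FPKM across the knockout libraries, about 34 to 55 fragments. The groups overlapped (exact permutation p = 0.9). With no filter the adjusted p was 0.948 (limma), and with a pseudocount of 0.1 the interval ran from -0.49 to 0.42. The sign of the mean difference turned without wild type replicate 2 or knockout replicate 1 (0.015 and 0.028). In bulk tissue, fewer cells of a type and less RNA per cell cannot be told apart. All 15 stellate cell and fibroblast markers were above 0 in every library, 0 of the 9 tested were called, with 0 at an unadjusted p under 0.05, and their summed level was 142 to 213 FPKM in wild type and 126 to 179 FPKM in knockout. Of the 9 tested, 8 had a log2 change below 0, with a median of -0.15 that became -0.03 without wild type replicate 3.

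Lpcat2 encodes a lysophosphatidylcholine acyltransferase that makes platelet-activating factor in inflammatory cells such as macrophages. It was at 0.449, 0.388 and 0.519 FPKM across the wild type libraries and 0.263, 0.299 and 0.424 FPKM across the knockout libraries. Knockout replicates 1 and 2 lay below all wild type libraries, and knockout replicate 3 lay above wild type replicate 2. The exact permutation test gave p = 0.2, and with no filter the adjusted p was 0.380 (limma), with an interval from -0.88 to 0.13 at a pseudocount of 0.1. The 13 Kupffer cell and macrophage markers, all above 0 in every library, summed to 75.1 to 257 FPKM in wild type and 213 to 374 FPKM in knockout. All 13 had a log2 change above 0. Limma called 0 of them, and an unadjusted p under 0.05 was reached by 5, all higher, against 18.7% of all tested genes in either direction. Without wild type replicate 3, 8 were called, in a fit that called 552 genes against 287 in the main fit. The means of Lpcat2 and of these markers thus differed in opposite directions, and the part of cell composition in either was not tested.

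**Figure D3:**
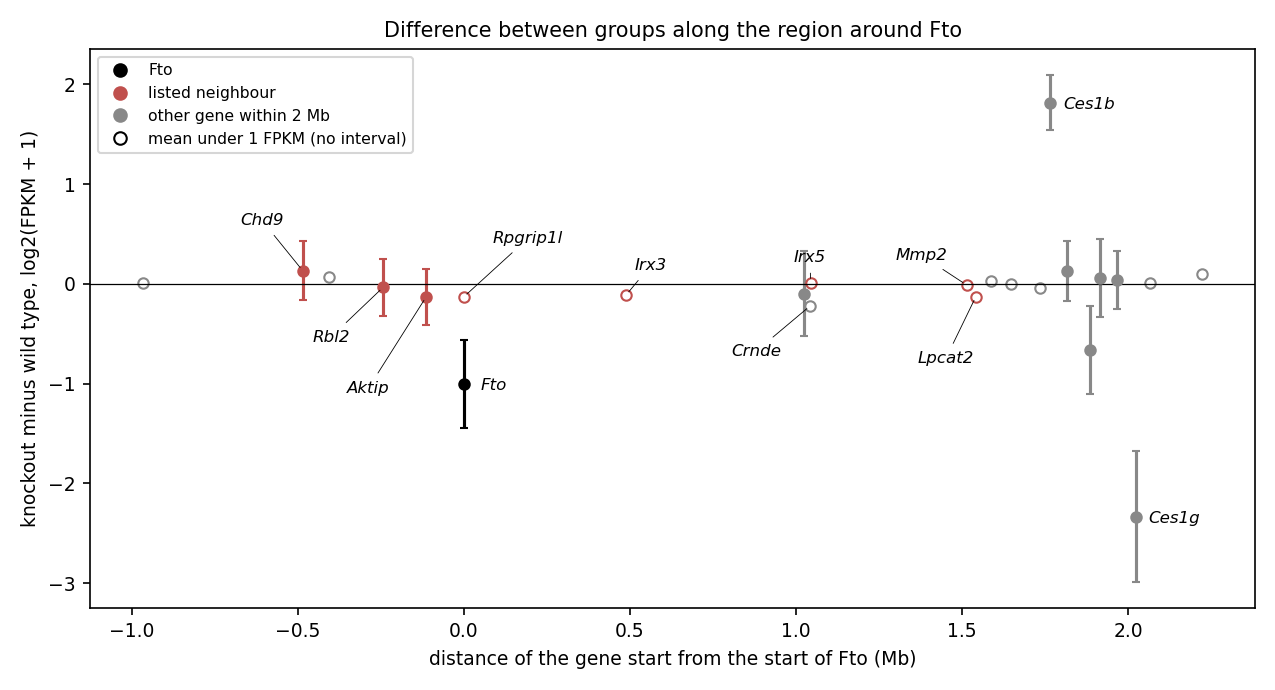
Knockout minus wild type difference in log2(FPKM + 1) for every gene of the table above 0 within 2 Mb of Fto, against the distance of its start from the start of Fto in Mb; filled points passed the filter and carry the 95% interval of limma, open points had a mean under 1 FPKM. All listed neighbours (red) lie between -0.13 and 0.13, Fto (black) is at -1.004, and Ces1b and Ces1g, to the right, are at 1.82 and -2.33. A gene cannot fall on this scale by more than its wild type mean, which is 0.148 for Irx3, 0.395 for Rpgrip1l and 2.88 for Fto. The size of the open points therefore cannot be compared with that of Fto.

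Beyond the 8 neighbours, 17 other genes of the table lie within 2 Mb of Fto. Of the 10 genes tested in this window besides Fto, 2 were called, 1 higher and 1 lower, against 2.76% of all tested genes, and both came from the carboxylesterase cluster at its right end. Ces1b was higher in knockout, at 62.0, 64.3 and 54.6 FPKM across the wild type libraries and 229, 211 and 204 FPKM across the knockout libraries (log2 change 1.82, SE 0.12, limma adjusted p = 0.000513). Ces1g was lower, at 64.9, 81.3 and 71.5 FPKM in wild type and 8.34, 21.1 and 13.9 FPKM in knockout (log2 change -2.33, SE 0.28, limma adjusted p = 0.00723). Both calls held under 12 alternatives, with an adjusted p (limma) of 0.000397 to 0.00733 for Ces1b and 0.00497 to 0.0499 for Ces1g. The call of Ces1g was thus close to the threshold of 0.05 without knockout replicate 3. The genes belong to a cluster of related copies, and how reads shared between copies were counted was not examined. The median log2 change of the 10 genes was 0.00, as was that of all 10405 tested genes. Within 1 Mb of Fto, 0 of 4 tested genes were called, and within 5 Mb 4 of 48 (8.33%) were, with Mt1 and Mt2 as the additional genes. Of the other genes within the span of the neighbours, Irx6 and Gm23408 were listed at 0 in all libraries. Gm6658, within Chd9 on the opposite strand, was listed at 0 in 4 of 6 libraries and at 0.288 FPKM in wild type replicate 2 and 0.494 FPKM in knockout replicate 3. Capns2, within Lpcat2, was listed at 0 in 4 of 6 libraries and at 0.0338 and 0.0274 FPKM in knockout replicates 1 and 3.

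Families and complexes of the neighbours are described by their counts, to be read against all 10405 tested genes, of which 2.76% were called and 18.7% reached an unadjusted p under 0.05. Members under 1 FPKM were counted in the fit with no filter, beside the 8560 low genes above 0, of which 0.818% were called and an unadjusted p under 0.05 was reached by 5.67% as higher and 6.79% as lower. Lists this short can hold no call, or 1, at such shares. Of 9 CHD genes, 8 were tested and 0 were called, with 0 at an unadjusted p under 0.05 and a median log2 change of 0.07; those with the smallest p were Chd3 (20.3 ± 2.76 and 23.2 ± 1.54 FPKM in wild type and knockout, SD, n = 3 each, limma adjusted p = 0.480) and Chd4 (adjusted p = 0.530). Of 16 genes of the retinoblastoma family and DREAM complex, 12 were tested and 0 were called. An unadjusted p under 0.05 was reached by 2 higher and 1 lower gene, and the median was -0.02. Rbbp4, a histone-binding subunit of DREAM and other complexes, was at 30.0 ± 1.64 and 43.2 ± 2.85 FPKM (SD, n = 3 each, limma adjusted p = 0.0567). It was the 1 gene of this list called, as higher, without wild type replicate 3, in a fit that called 552 genes. The transcription factor gene E2f4, a partner of p130, was at 5.38 ± 0.396 and 6.88 ± 0.821 FPKM (SD, n = 3 each, limma adjusted p = 0.222). Of the 4 genes of this list below the filter, 0 were called with no filter, and 2 reached an unadjusted p under 0.05, both with higher means. Of 16 cell cycle genes, 0 of the 3 tested were called, with 0 at an unadjusted p under 0.05. Of the 13 below the filter, 0 were called with no filter. An unadjusted p under 0.05 was reached by 5 of these 13, all with lower means in knockout. The groups of 4 of the 13 did not overlap, all lower in knockout, against 8.46% of the low genes. An example is the proliferation marker Mki67, at 0.0744, 0.146 and 0.144 FPKM across the wild type libraries and 0.0552, 0.0588 and 0.0559 FPKM across the knockout libraries (limma with no filter, adjusted p = 0.232). The 2 tested genes with the smallest p were Mcm6 (limma adjusted p = 0.585) and Pcna (0.720).

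Among Hook and FHIP partners of Aktip, 8 genes including Aktip were in the table and 7 were tested. Limma called 0 of them, 1 gene reached an unadjusted p under 0.05, as higher, and the median was 0.12. The microtubule linker gene Hook2 was at 7.10 ± 0.587 and 10.3 ± 1.43 FPKM (SD, n = 3 each, limma adjusted p = 0.103), and Fam160b1 followed (adjusted p = 0.450). Of 20 genes of the ciliary transition zone, 15 were below the filter like Rpgrip1l, and 0 of the 5 tested were called. All 5 had a log2 change above 0, with a median of 0.38, and 2 were higher at an unadjusted p under 0.05. The smallest p was that of B9d2, a transition zone protein gene (2.54 ± 0.117 and 3.61 ± 0.199 FPKM, SD, n = 3 each, limma adjusted p = 0.0871). The 15 low genes, Rpgrip1l among them, were mixed: 0 were called with no filter, and an unadjusted p under 0.05 was reached by 2 with higher and 3 with lower means.

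Of 17 metalloproteinase and inhibitor genes, 5 were tested and 0 were called. An unadjusted p under 0.05 was reached by 1 gene in each direction, and the median was -0.13. Mmp15, a membrane-bound protease, was at 3.60 ± 0.959 and 5.21 ± 0.397 FPKM and Mmp19 at 8.07 ± 0.779 and 5.66 ± 1.43 FPKM (SD, n = 3 each, limma adjusted p = 0.183 and 0.184). Of the 12 below the filter, Mmp2 among them, 3 reached an unadjusted p under 0.05 with no filter, all with higher means, and 1 was called, Mmp7, the matrilysin gene. It was at 0.0316, 0.0900 and 0.0937 FPKM across the wild type libraries and 0.285, 0.289 and 0.359 FPKM across the knockout libraries (limma with no filter, adjusted p = 0.0330). Of 14 lysophospholipid acyltransferase genes, 8 were tested, 0 were called, and 2 reached an unadjusted p under 0.05, both with lower means in knockout, with a median of -0.17. These were Agpat2, an enzyme of glycerolipid synthesis (169 ± 27.7 and 105 ± 15.2 FPKM, SD, n = 3 each, limma adjusted p = 0.0815), and Lpcat3, the main liver enzyme of its family (65.9 ± 2.87 and 51.5 ± 3.804 FPKM, adjusted p = 0.151). Of the 6 below the filter, Lpcat2 among them, 0 were called with no filter. An unadjusted p under 0.05 was reached by 1 of these 6, Lpcat4, with a higher mean in knockout (limma with no filter, adjusted p = 0.278). Of 9 browning genes, known in fat cells to respond to Irx3 and Irx5, 4 were tested, with a median of -0.49. Limma called 1, the lipid droplet gene Cidea, as lower (33.4 ± 4.91 and 0.257 ± 0.0596 FPKM, SD, n = 3 each, log2 change -4.77, adjusted p = 6.65e-06). Elovl3, a fatty acid elongase gene, reached an unadjusted p of 0.0196, with a lower mean in knockout (limma, adjusted p = 0.173). The list did not move as one: of the 4 tested, 3 had a log2 change below 0 and 1, Cox7a1, above 0. Of the 5 below the filter, 0 were called with no filter and 0 reached an unadjusted p under 0.05 (limma). The 6 adipocyte markers summed to 17.8 to 45.4 FPKM in wild type and 11.5 to 14.9 FPKM in knockout. Of the 2 tested, 1 was called, Cfd, as lower (limma, adjusted p = 0.00388). The groups of the other, Fabp4, overlapped (limma, adjusted p = 0.280). Adipoq had 0.0248 to 0.233 FPKM in wild type and a listed 0 in each knockout library. The part of adipocyte content in the browning list was not tested. For all tested genes the median was 0.00.

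**Figure D4:**
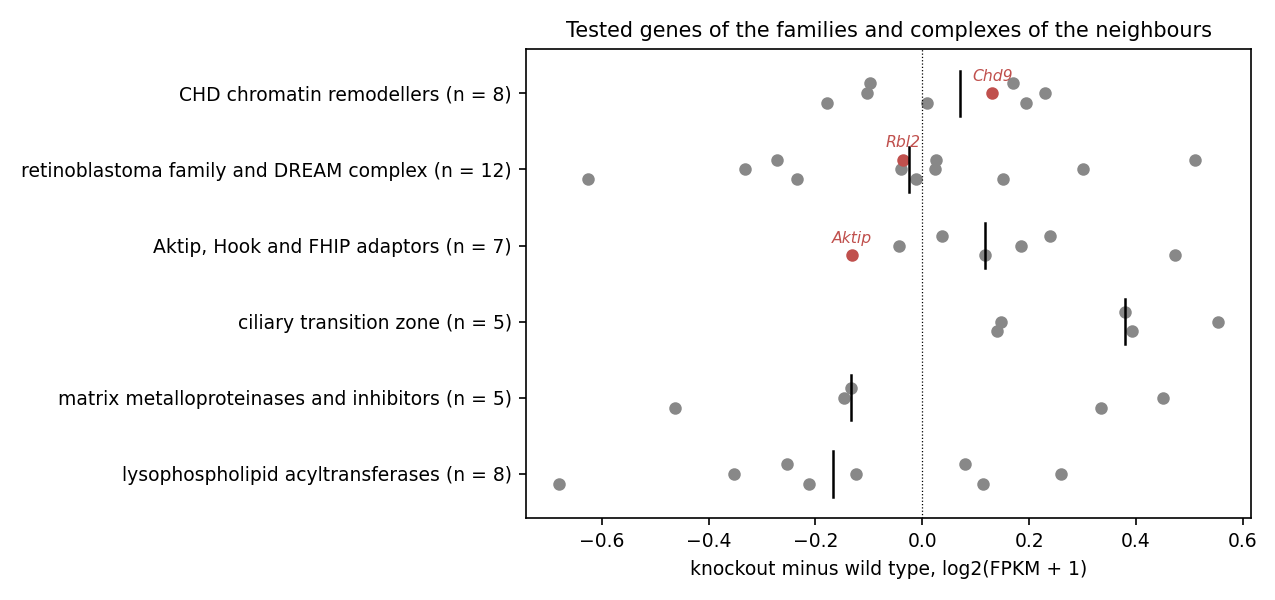
Knockout minus wild type difference in log2(FPKM + 1) of each tested gene (points) in 6 families or complexes that the neighbours belong to, with the median of each as a black line; vertical scatter within a list separates points only. Chd9, Rbl2 and Aktip (red) are at 0.13, -0.04 and -0.13, and 0 of the tested genes of these 6 lists were called in the main fit.

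The pattern of each tested neighbour over the 6 libraries was compared with that of all 10405 tested genes by Pearson's r of log2(FPKM + 1), as a description of libraries that share depth and composition. The genes closest to Rbl2 were Zup1 (r = 0.996), Sephs2 (0.992) and Nat2 (0.992), those closest to Aktip were 2810006K23Rik (0.997), 1700020I14Rik (0.994) and Blmh (0.989), and those closest to Chd9 were 9530068E07Rik (0.985), Pnisr (0.984) and Sipa1l3 (0.983). An r above 0.9 was reached by 50 genes for Rbl2, 246 for Aktip and 73 for Chd9. Fto was not among the closest genes of any neighbour.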

How the data were processed

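RNA sequencing of mouse hepatic tissue gave 6 libraries, grouped by their genotype label. The authors deposited FPKM for 25690 genes under Ensembl identifiers. Values and the submitters' processing notes gave the unit; these notes name TopHat2 2.1.0, HTSeq, Cufflinks 2.2.1 and mm10 without roles and with no annotation release. Many deposited values carry more digits than Cufflinks prints, as a mean of repeat values would; whether and what was averaged is not given in these notes. Total RNA was isolated with Trizol and treated with DNase, per the labels' protocols. GENCODE M21 (GRCm38, the assembly of mm10) matched 24807 identifiers.

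Groups were compared with limma 3.58.1 in R 4.3.3 (lmFit, eBayes with trend, two-sided) on log2(FPKM + 1). The 10405 genes whose mean reached 1 FPKM entered, with Benjamini-Hochberg adjustment over all of them and a threshold of 0.05. This scale understates changes of low genes. Genes below the filter were described by library, by an exact permutation test, and by the same fit with no filter. Depth was inferred from low FPKM values among 964 single-transcript genes (3000 to 8000 bases long). Each value above 0 was read as 1 fragment, and the median of the implied depths between 25000000 and 50000000 was taken. Only 49 to 60 values per library fell between these preset bounds, and no depth outside them could result. Fragment numbers rest on this depth and use the longest transcript. They are approximate, the more so if values were averaged. Replicate numbers follow sample order and pair nothing. When tested on simulated data of 10405 genes made for the knockout comparison, limma recovered 77 of 100 genes given a log2 change of 1 and 97 of 100 given one of 2, with 4 false calls among 178. The changed genes were drawn from those with a mean log2(FPKM + 1) above 1, and noise was independent between genes. Differences shared by the genes of a library, as in wild type replicate 3, were not simulated, so these rates may be too favourable.

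The genes named are Fto, the 8 neighbours, called genes of the window and those between the neighbours, called members of each list or otherwise the 2 with the smallest p, and the 3 closest patterns. 1 gene that this rule names is not reported here. The members and lists were chosen with earlier results of these data known. Alternatives were a pseudocount of 0.1, no filter, quantile normalization, size factors by median ratio, a robust eBayes, each library left out, and windows of 1 and 5 Mb. No filter together with a pseudocount of 0.1 or with a library left out, and the counts of list members below the filter, were added after the data were seen; Mki67 was named after its values were seen. Values for hepatocyte, stellate, macrophage and adipocyte markers are given beside the genes they bear on. Of the other marker lists, neutrophil (2 tested), sinusoidal endothelial (8) and cholangiocyte (1) markers had 0 called, and 0 lymphocyte markers passed the filter.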

Additional observations from a re-analysis of the deposited data

How the results depend on the processing

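The 3 tested neighbours had 0 calls in the main fit and in all 12 alternatives, and the 2 called genes within 2 Mb of Fto were 2 or 3 under the 12 alternatives that kept the window, 0 with a window of 1 Mb and 4 with one of 5 Mb. Fto kept its direction throughout; its call was lost with no filter (log2 change -1.004) and with no filter and a pseudocount of 0.1 (-1.24), and the change ran from -1.20 to -0.81 with each library left out (adjusted p 0.0184 to 0.146 over all 12 alternatives, limma). The count of called genes in the table, 287, was 180 with no filter and 92 to 552 with each library left out (92, 129, 115 and 552 without knockout replicate 3, knockout replicate 1, wild type replicate 2 and wild type replicate 3). With each library left out the log2 change of Rbl2 ran from -0.12 to 0.043 and that of Mmp2 from -0.038 to 0.028. The sign turned for Rbl2 without wild type replicate 2 (0.02) and without knockout replicate 1 (0.043), and for Mmp2 without the same libraries (0.015 and 0.028). The difference in level relative to Fto ran from 0.77 to 1.003 for Aktip, 1.05 to 1.29 for Chd9 and 0.85 to 1.08 for Rbl2 with each library left out. With a pseudocount of 0.1 in place of 1, the differences of Rpgrip1l (-0.43), Irx3 (-0.75), Irx5 (0.11), Lpcat2 (-0.38) and Crnde (-1.39) grew, as the scale compresses low values less. No paired analysis was possible because the labels give no replicate numbers shared between groups. Depth limits Irx3, Irx5 and Crnde, which rest on at most about 13 fragments per library by the inferred depth.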
